A study of Mus musculus with 4 samples.

Results

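The regions described here are the H4K16ac islands in the last 5 Mb of mouse chromosomes 1 to 19, at the end away from the centromere. For each chromosome the end was taken as the last base of the outermost island of either cell type, and an island belonged to the distal end when its midpoint lay within 5 Mb of that base. The rule uses position alone. It gave 4782 islands of 87678 on chromosomes 1 to 19. Of these, 2815 came from neural progenitor cells (NPC), whose list held 48170 islands on these chromosomes, and 1967 came from embryonic stem cells (ESC), whose list held 39508. The 19 windows add up to 95 Mb, or 3.84% of the length up to the chromosome ends so defined.

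NPC and ESC were both of the mouse line 46c, an ES cell line with a GFP reporter at Sox1, a gene that marks neural progenitors. The NPC were differentiated for 5 days in medium with NB27 and Neuro2 supplements and sorted for GFP, and the ESC were undifferentiated. Chromatin was cut with micrococcal nuclease and precipitated with the same Millipore antibody against acetylated lysine 16 of histone H4. There was 1 ChIP library and 1 input library per cell type. SICER, a caller of broad enrichment, had joined neighbouring enriched windows of mm9 into islands, and the reads of an island are the count deposited with it. Both cell types share the line and its reporter, and the labels do not say how many cultures gave a library.

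H4K16ac is written mainly by the acetyltransferase MOF (KAT8) and removed by sirtuins. It is found at active genes and enhancers, and the acetyl group weakens contacts between neighbouring nucleosomes. In budding yeast the deacetylase Sir2 removes it next to telomeres, where genes are silenced. Mouse chromosomes are telocentric, so the assembly starts at the centromere and its last bases lie next to the telomere of the long arm.

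The island reads came to 24386370 in the NPC list and 17935144 in the ESC list, and since reads outside islands are not listed, the depth of the libraries is unknown. With 1 library per cell type, no test across samples was possible, and neither islands nor chromosomes are replicates. Differences are therefore given as sizes, by chromosome and with counting intervals, and none has a p-value. The reads carry no molecular identifiers and may repeat a molecule. The 95% intervals below cover the counting of reads, islands or regions only. They treat each read, island or region as independent, which was not tested, so they are descriptions and decide nothing about the cell types.

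Pooled over the 19 chromosomes, H4K16ac islands covered more of the distal ends than of the rest, in both cell types and by a larger factor in NPC. By chromosome, the factor was larger in NPC on 10 and smaller on 9. In NPC, islands covered 23.2% of the distal windows and 12.0% of the rest, a ratio of 1.94. In ESC they covered 11.8% of the distal windows and 7.51% of the rest, a ratio of 1.57. The rest was counted from the first base of the chromosome, although no island of either list started before base 2999801. Counted from the first island, the ratios were 1.89 in NPC and 1.53 in ESC. Islands numbered 29.6 per Mb in the distal windows and 19.1 per Mb in the rest in NPC, and 20.7 and 15.8 per Mb in ESC. The windows held 7.40% of NPC island reads on these chromosomes (exact 95% interval 7.39% to 7.41%) and 5.83% of those of ESC (5.82% to 5.84%). Scaled to 1000000 island reads (RPM), this was 777 RPM per Mb in distal windows and 389 RPM per Mb elsewhere in NPC, against 603 and 389 RPM per Mb in ESC.

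The pooled values hide a wide range between chromosomes. In NPC the distal window was more covered than the rest on 14 of 19 chromosomes and less covered on 5, with ratios from 0.020 to 3.82. In ESC it was more covered on 12 and less covered on 7, with ratios from 0.052 to 3.26. The direction was the same in both cell types on 17 chromosomes, 12 higher and 5 lower. Chromosomes 5 and 19 had a higher share in the distal window in NPC and a lower one in ESC. On chromosome 5 these shares were 16.1% and 15.5% in NPC and 9.27% and 9.48% in ESC, so they differed little in either.

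**Figure D1:**
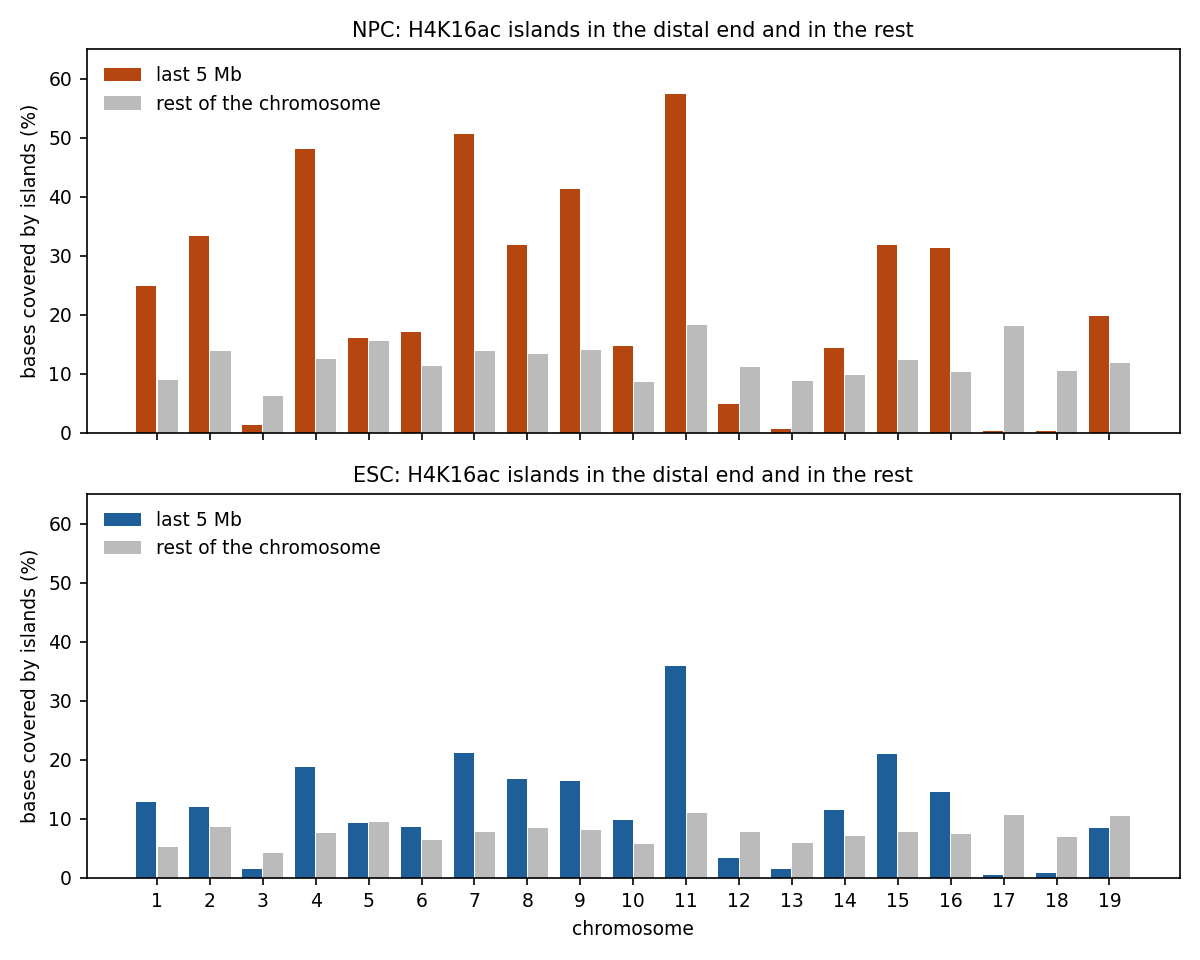
Bars give the percentage of bases covered by H4K16ac islands in the last 5 Mb (coloured, left) and in the rest (grey, right) of each of 19 chromosomes, NPC above and ESC below, 1 library each. Distal windows range from 0.344% on chromosome 18 to 57.5% on chromosome 11 in NPC, and from 0.556% on chromosome 17 to 35.9% on chromosome 11 in ESC.

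Chromosome 11 had the most covered distal end in both cell types, at 57.5% in NPC and 35.9% in ESC, against 18.3% and 11.0% in its rest. Chromosome 7 followed in both, with 50.7% in NPC and 21.2% in ESC. The next was chromosome 4 in NPC, at 48.1%, and chromosome 15 in ESC, at 21.0%. The 3 chromosomes with the most covered bases in NPC held 35.4% of all distal island bases of NPC and 33.8% of those of ESC. The order of the 19 chromosomes was much the same in the 2 lists, with a Spearman rho of 0.926 over 19 chromosomes as a description.

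The distal ends of chromosomes 17, 18 and 13 were nearly without islands. NPC islands covered 0.360% of the window on chromosome 17, 0.344% on chromosome 18 and 0.724% on chromosome 13. They numbered 8, 9 and 13. ESC islands covered 0.556%, 0.824% and 1.46% of these windows, with 19, 31 and 27 islands. Chromosome 3, at 1.38% in NPC and 1.45% in ESC, and chromosome 12, at 4.97% and 3.44%, were the other ends below their own rest in both lists. The rest of chromosome 17 was not sparse, with 18.1% covered in NPC and 10.7% in ESC, close to the rest of chromosome 11.

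When the longest island-free stretch of each distal window was taken, the 4 longest of these lay at sparse ends. A window with few islands must hold long gaps. The longest stretch without an island of either list was 1053.6 kb on chromosome 17 (chr17:92047201-93100800) and 1029 kb on chromosome 3 (chr3:155067201-156096200). On chromosome 13 it was 728.6 kb and on chromosome 18 it was 587.8 kb. Chromosome 12, another sparse end, had 279.4 kb, less than chromosomes 14, 8 and 1, with 380, 313.2 and 296.6 kb. On chromosome 11 the longest was 73.8 kb.

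No island was assigned to a gene, and no marker gene of either cell type was read, because the islands are on mm9 and the RefSeq gene table used here is on GRCm38.p6. That table gives the order of named protein-coding genes toward each end, and no island was matched to them. On chromosome 11 the outermost are Ptchd3, Metrnl, B3gntl1 and Tbcd, a cofactor of tubulin folding. On chromosome 7 they are Mrgprd, a Mas-related receptor of sensory neurons, Mrgprf, the endolysosomal channel gene Tpcn2 and Smim38. On chromosome 4 the outermost is Vmn2r129, a vomeronasal receptor gene, followed toward the centromere by Samd11, Noc2l and Klhl17. Among the sparse ends, chromosome 18 has Tmx3, Dok6, Cd226 and Rttn. Gene density at the ends was not compared here.

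The mark did not increase steadily toward the end. In NPC the outermost 1 Mb was covered at 13.2%, averaged over the 19 chromosomes, the next at 20.5%, and the third, from 2 to 3 Mb, at 29.8%. The following steps had 28.7% and 23.7%. In ESC the same 5 steps had 9.28%, 10.9%, 11.9%, 13.1% and 13.9%. The outermost 1 Mb was less covered than the step from 2 to 3 Mb on 16 of 19 chromosomes in NPC and on 12 in ESC. The closest 250 kb had 9.65% in NPC and 8.26% in ESC.

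**Figure D2:**
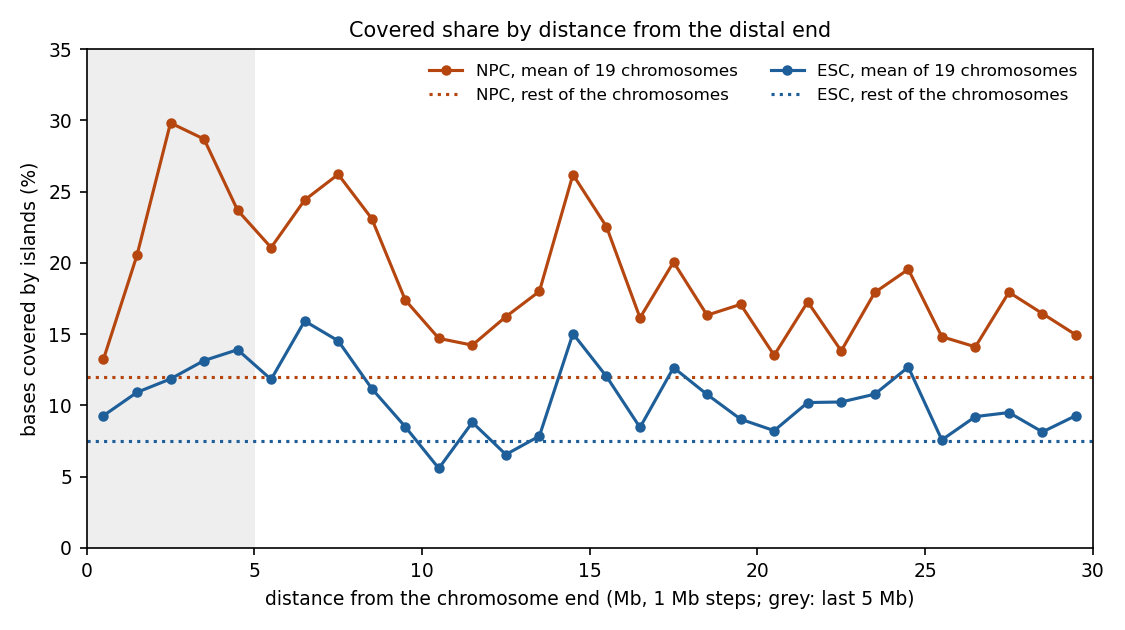
Points give the percentage of bases covered by islands in 1 Mb steps from the chromosome end, averaged over 19 chromosomes (NPC red, ESC blue). Dotted lines give the share outside the last 5 Mb, and the NPC curve peaks at 29.8% from 2 to 3 Mb and stands at 13.2% in the outermost step.

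The excess also ran on past 5 Mb. From 5 to 10 Mb, islands covered 22.4% in NPC and 12.4% in ESC, and from 10 to 15 Mb 17.9% and 8.76%. From 25 to 30 Mb they still covered 15.7% in NPC and 8.74% in ESC, above the 12.0% and 7.51% of the rest as a whole. With the window cut to the last 2 Mb, the pooled ratio of distal to rest was 1.37 in NPC and 1.32 in ESC, and the distal end was the more covered on 7 of 19 chromosomes in NPC and on 8 in ESC.

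Single 1 Mb steps showed how uneven the windows were. In NPC, 15 of the 95 distal steps (15.8%) were covered at 50% or more, against 74 of 2310 steps (3.20%) in the rest. In ESC, 1 of 95 (1.05%) and 5 of 2310 (0.216%) were. At the other extreme, 16 distal steps (16.8%) were covered at less than 1% in NPC, against 29.7% of steps in the rest, and 13 (13.7%) in ESC, against 25.4%. The fullest NPC step lay 3 to 4 Mb from the end of chromosome 11, at 70.5%, where ESC islands covered 24.2%. The fullest ESC step lay 1 to 2 Mb from the same end, at 58.0%, where NPC islands covered 58.6%.

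Among 5 Mb windows laid from the end of each chromosome, 11 to 38 per chromosome, the distal one was the most covered on chromosomes 4, 7, 9 and 11 in NPC and on chromosome 11 in ESC. On chromosome 7 it had 50.7% in NPC, against 31.9% in the next best window. On chromosome 11 the distal window had 35.9% in ESC and the next best 21.3%. The distal window ranked last on chromosomes 17 and 18 in both lists.

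Pooled over chromosomes, distal islands were wider than the rest, while by chromosome the distal median was higher on 10 of 19 and lower on 9 in each list. The median NPC island was 5400 bp in the distal windows and 4200 bp elsewhere, and the median ESC island was 3600 bp and 3000 bp. The lower quartile was 3000 bp and 2400 bp in NPC, and 2000 bp and 1800 bp in ESC. Islands of at least 8000 bp made up 33.2% of distal NPC islands (exact interval 31.5% to 35%) and 23.6% of the others (23.2% to 24.0%). In ESC they made up 19.6% (17.8% to 21.4%) and 14.8% (14.5% to 15.2%). Per Mb, broad islands numbered 9.84 in the distal windows and 4.51 elsewhere in NPC, and 4.05 and 2.34 in ESC. The median gap between neighbouring islands was 5400 bp in the distal windows of NPC, against 8800 bp elsewhere, and 15600 bp in those of ESC, against 19600 bp.

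Small dense islands were counted apart. Islands up to 2000 bp wide whose density reached 120 reads per kb numbered 2.85 per Mb in distal ESC windows and 2.79 elsewhere. They made up 13.8% of distal ESC islands (12.3% to 15.4%) and 17.7% of the others (17.3% to 18.1%). In NPC they were rare, at 31 of 2815 distal islands (1.1%) and 1.30% elsewhere, or 0.326 per Mb in distal windows and 0.248 per Mb elsewhere.

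Read density within islands, in reads per kb of island, differed little between the parts. Its median was 79.0 in distal NPC islands and 76.5 in the others, with SDs across islands of 13.5 and 15.2 reads per kb. In ESC it was 90.6 and 92.6, with SDs of 33.1 and 36.4 reads per kb. By width class, the distal ESC median was lower only up to 1 kb, at 133 against 140. It was slightly higher in each wider class, as at 88.7 against 86.8 from 2 to 4 kb. Without the dense narrow islands the ESC ratio of distal to rest moved to the other side of 1, at 1.004 in place of 0.978. At the 3 most covered NPC ends, chromosomes 11, 4 and 7, median NPC widths were 9300, 8200 and 7500 bp at densities of 84.1, 81.5 and 85.8 reads per kb. On chromosomes 17 and 18 median NPC widths were 1700 and 1600 bp. The few ESC islands at those 2 ends were narrow and dense, with medians of 1000 and 1200 bp and of 141 and 146 reads per kb, against 92.9 and 85.9 in the rest of these chromosomes.

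The widest distal island of either list was in ESC, 91 kb on chromosome 11 (chr11:119896201-119987200) with 7753 reads, and 88.1% of its bases lay in NPC islands. It belonged to a run of broad ESC islands from 119638001 to 119987200 on that chromosome. The run also held islands of 72.4 kb with 6870 reads, 52 kb with 5432 reads and 59 kb with 5304 reads, which shared 97.2%, 98.5% and 89.5% of their bases with NPC islands. The widest in NPC was 73.8 kb on the same chromosome (chr11:118339801-118413600) with 6648 reads, and 19% of it lay in ESC islands.

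A domain near the end of chromosome 7 was of the same width in both cell types. It spanned 64 kb in NPC (chr7:149017201-149081200) with 6672 reads, the most of any distal NPC island, and 64 kb in ESC (chr7:149020001-149084000) with 5562 reads. The shared bases were 95.6% of each. The other NPC islands among the 5 widest were 60 kb and 58 kb on chromosome 8, from 127929801 and 126822001, and 57.4 kb on chromosome 11 from 119294001, with 73.7%, 94.1% and 62.0% in ESC islands. An NPC island of 51.2 kb on chromosome 4 from 153620801 had 5372 reads, and an ESC island of 63.4 kb on chromosome 15 from 99128401 had 5632.

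The densest distal islands, among those with at least 200 reads, were in ESC. On chromosome 7, chr7:152123001-152129600 held 1922 ESC reads at 291 reads per kb, and an NPC island of 5.6 kb there held 438 reads. On chromosome 15, islands from 102234201 and 98815201 had 263 and 247 reads per kb. In NPC the leading densities were 181 reads per kb in 2 islands, a 1.8 kb one on chromosome 10 from 125340201 with 326 reads and a 24 kb one on chromosome 9 (chr9:121125001-121149000) with 4344 reads. The other NPC islands in the chromosome 9 window had a median of 78.9 reads per kb, and 90% of this NPC island lay in an ESC island of 28.2 kb with 3711 reads.

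NPC islands covered 1.96 times as many bases as ESC islands in the distal windows and 1.59 times as many in the rest, so the ratio was 1.23 times as large at the ends. NPC islands covered more than ESC islands on 15 of 19 chromosomes and less on 4. Chromosomes 7, 4, 9, 11 and 2 made up 58.6% of the extra 10.8 Mb, and the same 5 held 52.4% of all distal island bases of NPC and 46.4% of those of ESC. The ratio was largest on chromosome 2, at 2.80 (33.4% in NPC against 11.9% in ESC), then on chromosomes 4 and 9, at 2.57 and 2.51. It was below 1 on 4 chromosomes, at 0.417 on chromosome 18, 0.497 on chromosome 13, 0.647 on chromosome 17 and 0.95 on chromosome 3. These 4 ends held 8 to 31 NPC islands each.

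The distal ratio exceeded that of the rest on 10 of 19 chromosomes and fell short of it on 9. On chromosome 11, the most covered end, it was 1.60 in the distal window and 1.66 in the rest. The median over chromosomes of the 2 ratios' quotient was 1.06, and in the last 2 Mb the pooled quotient was 1.04. Called width depends on library depth and background, which are unknown here, and their part in the ratio was not tested.

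**Figure D3:**
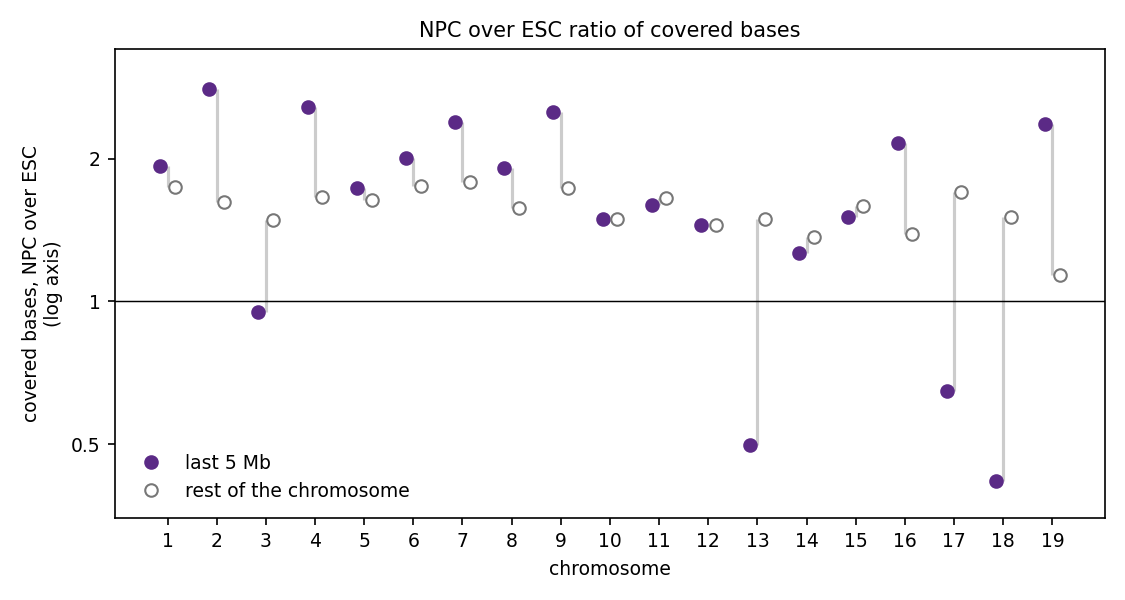
Points give the ratio of bases covered by islands, NPC over ESC, in the last 5 Mb (filled) and in the rest (open) of each chromosome, on a log axis with a line at 1. Rests lie between 1.14 and 1.78, and distal ends spread from 0.417 on chromosome 18 to 2.80 on chromosome 2.

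Merging the islands of both lists gave 3682 distal regions. Of these, 1842 (50%) were called in NPC only, 997 (27.1%) in ESC only and 843 (22.9%) in both. In the rest of the chromosomes the shares were 45.2%, 34.1% and 20.7%. Regions called in NPC only held 12.4 Mb of NPC islands at the ends, against 3.13 Mb of ESC islands in regions called in ESC only, a ratio of 3.97, whereas in the rest this ratio was 2.49. Regions called in both were closer, with 9.60 Mb in NPC and 8.09 Mb in ESC.

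The largest NPC-only regions at the ends were single broad islands. They were 43 kb on chromosome 15 (chr15:101178001-101221000) with 4644 reads, and 41.6 kb on chromosome 4 (chr4:154109001-154150600) with 4140 reads. Next came 42.4 kb on chromosome 11 from 119167801 with 3900 reads, 40.6 kb on chromosome 9 from 122081801 with 3615 reads, and 37.4 kb on chromosome 11 from 118176401 with 3536 reads. Their densities were 89.0 to 108 reads per kb.

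ESC-only regions with the most reads were shorter. The first, on chromosome 15 (chr15:98815201-98824600), had 2320 reads in 9.4 kb, and the second, on chromosome 11 (chr11:116936401-116946200), had 2112 reads in 9.8 kb, at 247 and 216 reads per kb. The other 3 were 15.2 to 17 kb on chromosomes 7, 4 and 11, with 1885, 1858 and 1786 reads at 105 to 122 reads per kb.

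Sharing between cell types differed by the list it was counted in. Among distal ESC islands, 970 of 1967 (49.3%, exact interval 47.1% to 51.5%) overlapped an NPC island by at least 1 base, against 15143 (40.3%, 39.8% to 40.8%) elsewhere and 40.8% of all ESC islands on chromosomes 1 to 19. Among distal NPC islands, 973 of 2815 (34.6%, 32.8% to 36.4%) overlapped an ESC island, against 34.7% elsewhere (34.2% to 35.1%) and 34.6% of all NPC islands. The difference between distal and rest in NPC was -0.086 percentage points, with an interval (-1.90 to 1.76) that included 0. The difference in ESC was 8.98 percentage points (6.69 to 11.3). With the last 2 Mb as the window, the differences were 2.99 percentage points in NPC (-0.293 to 6.37) and 2.07 in ESC (-1.58 to 5.78), and both intervals included 0. By bases, 31.0% of distal NPC island bases and 60.8% of distal ESC island bases were shared, against 32.3% and 51.5% elsewhere.

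In ESC wide islands were overlapped more often than narrow ones, so sharing was also read within classes of width. ESC islands of 2 to 4 kb were overlapped at 42.0% in the distal windows (37.9% to 46.2%) and 34.8% elsewhere (34.0% to 35.7%), and those of 1 to 2 kb at 23.4% (19.3% to 27.9%) and 18.0% (17.2% to 18.9%). In the other 4 width classes of ESC the intervals of the 2 parts overlapped. In NPC, islands of 8 to 16 kb were overlapped at 37.5% in the distal windows (33.6% to 41.6%) and 43.9% elsewhere (42.8% to 45.0%). Those of 4 to 8 kb were overlapped at 28.3% (25.2% to 31.5%) and 33.1% (32.3% to 34.0%). Those of 1 to 2 kb went the other way, at 36.8% (31.6% to 42.2%) and 30.4% (29.3% to 31.5%), and in the other 3 classes the intervals overlapped. All these intervals take islands as independent, which was not tested, so they do not decide which classes differ. Distal windows differ from the rest in how much the other list covers (23.2% against 12.0% for NPC islands), and the part of this in the overlap shares was not tested.

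**Figure D4:**
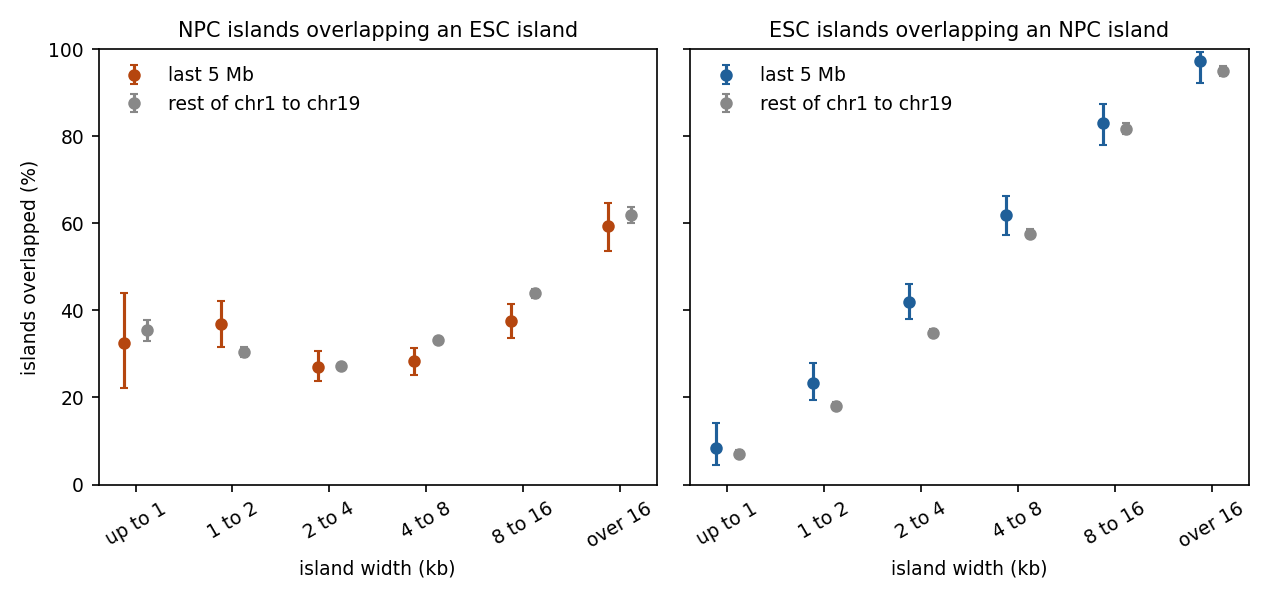
Points give the percentage of islands that overlap an island of the other cell type, by width class in kb, in the last 5 Mb (coloured) and in the rest of chromosomes 1 to 19 (grey), NPC left and ESC right. Bars are exact 95% intervals, and the share reaches 59.3% of NPC and 97.3% of ESC islands over 16 kb in the distal ends.

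By chromosome, the distal share of ESC islands overlapped was above that of the rest on 11 and below it on 8. It was highest on chromosome 4, at 68.1% against 36.8% in its rest, and on chromosome 11, at 67.3% against 46.0%. On chromosome 18 it was 6.45% of 31 islands. For NPC islands chromosome 11 had the highest share, at 53.5% in the distal window and 36.6% in the rest.

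In the 843 distal regions called in both lists, the share of island reads was compared as log2 NPC over ESC of RPM. Its median was -0.40 (-0.45 to -0.35) at the ends and -0.50 (-0.51 to -0.49) in the 13591 shared regions elsewhere, with SDs across regions of 1.07 in each. Values above 0 made up 221 of 843 distal regions (26.2%) and 22.1% of all shared regions on chromosomes 1 to 19. Values above 1 were found in 71 (8.42%), against 6.17% of all, and values below -1 in 190 (22.5%), against 28% of all. The level of these values, and so these counts, depends on the scaling to all island reads. On that scale shared regions held 33526 RPM in NPC and 39907 in ESC at the ends, and 422796 and 565957 elsewhere. Scaling to reads in shared regions shifts all values alike and leaves the difference between the parts at 0.097. The median difference between the parts was 0.097, with an interval of 0.052 to 0.147 that takes in the distal regions alone. It was -0.062 (-0.144 to 0.011) with the last 2 Mb as the window, and by reads per kb it was 0.029. Of the shared distal regions 51.2% were wider in NPC than in ESC, against 44.8% elsewhere.

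The distal regions with the highest log2 values joined a short ESC island to a long NPC one. On chromosome 8, chr8:128828001-128852800 held 1971 NPC reads in 24.8 kb and 117 ESC reads in 1.2 kb, which gave 3.63 (3.36 to 3.91). For chr10:127320001-127345000, with 1947 NPC reads in 25 kb and 135 ESC reads in 1.6 kb, the log2 was 3.41 (3.15 to 3.67). A region of chromosome 8 from 127739801 had 3.23, one of chromosome 4 from 151733401 had 2.96, and one of chromosome 2 from 180929001 had 2.79. Reads outside islands are not in the lists. By reads per kb these 5 regions had -1.07 to -0.46, where the median of all shared distal regions was -0.48 and 18 of 843 (2.14%) were above 0, so the sign on that scale does not set them apart.

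At the low extreme the widths were the other way round. The first, on chromosome 4 (chr4:154545201-154584400), held 229 NPC reads in 3.2 kb and 3656 ESC reads in 39.2 kb, which gave -4.44 (-4.64 to -4.25). Another on the same end (chr4:155066401-155086000) held 176 NPC reads in 1.6 kb and 1993 ESC reads in 19.6 kb, at -3.94 (-4.18 to -3.72). Chromosome 5 had a region from 147643601 at -3.95, chromosome 15 one from 101904001 at -3.40, and chromosome 8 one from 129462601 at -3.33. By reads per kb these 5 had -1.44 to -0.33, and those at -3.95 and -3.94 had -0.34 and -0.33, above the median of -0.48. The distal end of chromosome 4 held regions at both extremes.

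The very last island of a chromosome was usually an ESC one. It was from ESC alone on 16 of 19 chromosomes, from NPC alone on chromosomes 2 and 7, and from both on chromosome 5, where the islands coincided at chr5:152499401-152501000 with 147 NPC reads and 199 ESC reads. Of these 16 ESC islands, 14 had no NPC island over them. All 16 were 0.6 to 5.4 kb wide and held 76 to 549 reads. Their density had a median of 128 reads per kb. Narrow ESC islands were dense in all parts, with medians of 133 in the distal windows and 140 elsewhere up to 1 kb, and 111 in each from 1 to 2 kb. The last NPC island lay 1553 kb inside that point on chromosome 14, 562 kb on chromosome 18 and 468 kb on chromosome 12. Because the rule set the end by the outermost island, the last position itself is no result, and with the end taken from each list alone the NPC ratio of distal to rest was 2.0015 in place of 1.94.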

How the data were processed

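Per the labels, 4 libraries were made: 1 H4K16ac ChIP and 1 input library each of NPC and ESC. The submitters' processing notes name SICER 1.1, bedtools 2.10.1, Bowtie 0.12.7, CASAVA 1.8.2 and SAMtools 0.1.7, with mm9. The SICER settings in the lists' names are 200 bp windows, 600 bp gaps and an FDR of 0.01. Each list, as deposited by the authors, gives islands with a whole number, read as the count of ChIP reads per island, scaled to neither depth nor input. Duplicate removal and the use of input are not given in the sources used here. Coordinates were moved by 1 to count from 1.

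Covered bases were clipped to the window, and all other values follow the midpoint. Density is reads per kb of island. Scaled values use all island reads of a list. Overlap needed 1 shared base. Intervals are exact Clopper-Pearson, or from order statistics for medians, with these exceptions. For a difference in overlap share, the exact intervals of the distal windows and the rest were combined. For the log2 difference, the median of the rest was taken as fixed. For covered share and the NPC over ESC ratio, covered windows of 200 bp were taken as independent counts. Those intervals are not printed and served only to label values as moved. The median island of the full lists held 313 reads in NPC and 277 in ESC, a counting error of 5.65% and 6.01%. No p-value was computed.

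Named items were drawn, at the ends, from the 5 widest, 5 richest and 5 densest islands of each list, the 5 NPC-only and 5 ESC-only regions with most reads, the 5 highest and 5 lowest log2 with at least 100 reads in each list, the last islands, and the 3 chromosomes at each extreme. Further chromosomes, and which end genes to print, were chosen after their values were seen. The members, classes and lists were chosen with earlier results of these data known. Steps of 1 Mb by covered share, the first 5 Mb and chromosome X were added after seeing the data. On a simulated list the overlap step found each of the 1661 distal and 13572 other islands made to overlap and 0 others, and counts in the real lists equalled those of bedtools 2.31.1. Results by gene, and any sequence, were left out because no mm9 annotation or genome was used here. The software was pandas 2.3.3, scipy 1.17.1, numpy 2.4.6 and matplotlib 3.10.9 under Python 3.11.15.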

Additional observations from a re-analysis of the deposited data

Results flagged for a closer look

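Chromosome X lies outside the rule, and its distal end stood out in both lists. The outermost X island spanned chrX:166577601-166637200 in NPC, 59.6 kb with 7540 reads at 127 reads per kb, and chrX:166577401-166637400 in ESC, 60 kb with 12188 reads at 203 reads per kb. It was the widest X island of each list. It held 16.1% of all island reads on X in NPC and 4.42% in ESC, and the other X islands had medians of 69.1 and 139 reads per kb. By reads it was not alone, since the richest other X island held 7421 reads in NPC and 11852 in ESC. It is given as a signal in data that the comparisons did not use, and every listed island held at least 43 reads in NPC and 60 in ESC, so its being above a count of 0 sets it apart from none of them. The distal 5 Mb of X held 3 of 107 NPC islands with 36.2% of the X reads (exact interval 35.7% to 36.6%), and 22 of 1046 ESC islands with 11.7% (11.5% to 11.8%). How many genomic copies this sequence has was not tested.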

How the results depend on the processing

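No paired analysis was possible because each cell type has 1 library and the labels carry no replicate numbers. The pooled ratios for covered share, island number and width stayed above 1 in both lists under every alternative, although with the last 2 Mb the interval for ESC width reached 1 and most chromosomes were less covered in the distal window. With the last 2 Mb as the window, the distal over rest ratio was 1.37 (NPC) and 1.32 (ESC) for covered share, 1.16 and 1.21 for islands per Mb, 1.14 and 1.07 for median width, and 1.05 and 1 for density. The read shares were 2.18% and 2.06%, 7 chromosomes had the higher distal share in NPC, the overlap differences were 2.99 and 2.07 percentage points, the NPC over ESC ratio of covered bases was 1.04 times that of the rest, and the log2 difference turned to -0.062. With the last 10 Mb, covered share gave 1.98 and 1.66, NPC number 1.63, NPC density 1.02, read shares 14.4% and 11.8%, and the NPC over ESC ratio 1.20. With ends from each list alone, the NPC values were 2.0015 for covered share and 7.61% of reads, and the NPC over ESC ratio was 1.27. With the rest counted from the first island, covered share gave 1.89 and 1.53.

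With islands of at least the median read count of their list, covered share gave 2.14 (NPC) and 1.69 (ESC), number 1.93 and 1.53, width 1.11 and 1.07, ESC density 0.998, read shares 8.04% and 6.23%, the NPC overlap difference -2.80 percentage points and the NPC over ESC ratio 1.26. With islands of at least 1000 bp, NPC width gave 1.23, ESC density 0.994, read shares 7.41% and 5.86%, and the NPC overlap difference turned to 0.097. Without dense narrow islands it turned to 0.086, ESC gave 1.60 for covered share, 1.37 for number, 1.004 for density (the other side of 1) and 5.97% of reads, and the NPC over ESC ratio was 1.22. Without very dense islands the read shares were 7.41% and 5.86%. As medians of the 19 chromosomes, covered share gave 1.69 and 1.60, number 1.77 and 1.51, NPC width 1.1, ESC density 0.998, read shares 6.51% and 6.003%, overlap differences 0.762 (NPC, direction turned) and 6.12 (ESC) percentage points, the NPC over ESC ratio 1.06 and the log2 difference 0.034. By reads per kb that difference was 0.029, and the 5 regions of highest log2 had -0.74, -0.56, -0.46, -1.07 and -0.65, on a scale where 18 of 843 distal regions are above 0 and the median is -0.48. The cause of these changes was not tested.

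Leaving out 1 chromosome at a time gave 1.83 to 2.09 (NPC) and 1.43 to 1.68 (ESC) for covered share, lowest without chromosome 11 and highest without chromosome 17, 1.48 to 1.66 and 1.25 to 1.38 for number, 1.02 to 1.04 for NPC density and 6.93% to 7.82% and 5.31% to 6.13% for read shares. It gave -1.62 to 0.784 percentage points for the NPC overlap difference, on both sides of 0 (lowest without chromosome 11, highest without chromosome 2), and 1.20 to 1.28 for the NPC over ESC ratio. Of 147 values under other settings, 83 were labelled the same, 58 moved and 6 changed direction. The same meant inside the interval of the main value or, for counts of chromosomes, within a set factor. Some settings cannot change some values, as counting the rest from the first island cannot change width, density or overlap. Read shares must move with the length of the window. The tally is therefore no measure of how firm the results are. Planned results by gene were not run. Without replicates, counting error says nothing of the spread between cultures.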

Other observations

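The other end of the chromosomes, next to the centromere, was less covered than the distal end in pooled NPC and nearly as covered in pooled ESC. In NPC, islands covered 23.2% of the distal windows and 12.1% of the first 5 Mb after the first island, averaged over 19 chromosomes. In ESC they covered 11.8% and 10.9%, both above the 7.51% outside the distal windows. The medians over the 19 chromosomes lay further apart in ESC, at 11.4% distal and 5.95% proximal. In NPC these medians were 19.9% and 7.20%. The NPC over ESC ratio of covered bases was 1.96 in the distal windows and 1.11 in the proximal ones. The distal window was the more covered end on 13 chromosomes in NPC and on 12 in ESC, and had the higher NPC over ESC ratio on 15. Chromosome 19 had the most covered proximal end in NPC, at 38.9% against 28.8% in ESC. On chromosome 14 the order was the other way, at 21.3% in NPC and 39.2% in ESC. Chromosome 17 had 0.360% in NPC and 0.556% in ESC at its distal end, against 33.5% and 18.4% at its proximal end.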
